A study of Mus musculus with 32 samples.

Results

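This account concerns the net difference between primary spheres of TH-MYCN mice and the normal sympathetic ganglion of wild-type mice. Its members are the 8 primary sphere cultures and the 8 wild-type ganglia, chosen by their titles, 16 of the 28 biological samples of the series. Spheres are clusters of cells that grow unattached in culture. They were grown for 8 days from mice of 3 weeks of age that were hemizygous for TH-MYCN, a transgene that places human MYCN under a tyrosine hydroxylase promoter and gives rise to neuroblastoma. The reference tissue was the superior mesenteric ganglion (SMG), an abdominal sympathetic ganglion, dissected at 3 weeks from mice without the transgene. Both groups had the 129+Ter/SvJcl background, and the labels give no sex. Genotype, culture and the change from whole tissue to selected cells all separate the 2 groups, so none of them can be told apart from the others in this contrast. The other 2 groups of the series are used only to place levels: 8 SMG of 3-week-old TH-MYCN hemizygotes, and 4 sphere cultures passaged 5 times.

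Sympathetic neurons arise from neural crest cells that pass through a dividing neuroblast stage under transcription factors such as Hand2 and Gata3, and then leave the cell cycle, make noradrenaline and come to depend on nerve growth factor. MYCN is a transcription factor that pairs with Max, binds E-box motifs and drives growth genes. It is normally expressed in neuroblasts, and its amplification marks aggressive human neuroblastoma. In TH-MYCN mice the transgene acts in cells with an active tyrosine hydroxylase promoter, and tumours form in sympathetic ganglia.

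Messenger RNA was measured on one-colour Agilent arrays. A level below is the log2 processed signal of a gene's probe minus the 75th percentile of its array, so a difference of 1 is 2-fold, and levels of different genes are not compared. Levels given as 3 values in a row are the lowest, median and highest of 8 samples. Differences are primary spheres minus wild-type SMG, with their standard error (SE), from limma across 15907 genes, two-sided and with Benjamini-Hochberg adjustment over those genes. A gene "rose" or "fell" if its adjusted p was under 0.05. Where no array of the dimmer group was well above background, the fold is given as a bound ("at least"). Where only 1 or 2 arrays of that group were, the fitted difference rests partly on signal at background, and the difference with each array's value raised to its lowest signal well above background is given as well ("at the floor"). Spots well above background made up 57.0% to 59.7% of sphere arrays and 60.4% to 65.7% of wild-type arrays. The 75th percentile of signal was 462 to 563 on sphere arrays and 519 to 985 on wild-type arrays. Across genes, samples correlated at 0.980 to 0.994 within the spheres, 0.978 to 0.994 within wild-type SMG and 0.767 to 0.814 between the groups. Spheres 1 to 4 and 5 to 8 lay on 2 slides, and wild-type SMG 1 to 4 and 5 to 8 on 2 others, so slide and group cannot be told apart by a fixed term.

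The 2 groups differed over most of the measured transcriptome. Of the 15907 genes tested, 6836 rose in spheres (43%) and 6492 fell (40.8%), 83.8% in all. Of these, 3557 rose and 4442 fell by at least 2-fold. The 8 spheres lay entirely above the 8 ganglia for 5056 genes (31.8%) and entirely below for 5049 (31.7%), 63.5% in all. The median difference over all tested genes was 0.05. The gene groups below come from 44 lists with 582 symbols, of which 541 were tested, 10 had no named probe on the array and the rest were too dim. Because so many genes differed, a call on a single gene says little by itself, and the groups are described by how far their counts and medians depart from these shares. With slide as a random block (correlation within slides 0.407), 11918 genes were called.

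**Figure D1:**
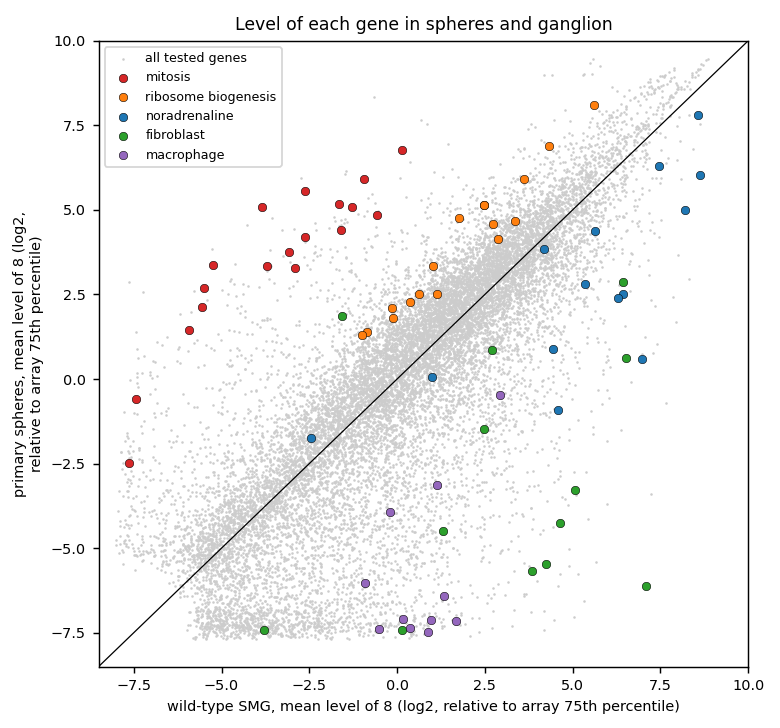
Mean level of each tested gene in 8 primary spheres (vertical axis) against 8 wild-type SMG (horizontal axis), both in log2 units relative to the array's 75th percentile; grey points are all 15907 genes, coloured points are members of 5 gene lists, and the line marks equal levels. Mitosis and ribosome biogenesis genes lie above the line, and all fibroblast and macrophage genes but one below it, while noradrenaline genes spread from 0.71 above the line (Pnmt) to 6.38 below it (Slc6a2).

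Genes of dividing cells were far higher in spheres. All 18 tested genes of the mitosis list rose (against 43% of all tested genes), with a median difference of 6.85, or 6.84 with the 2 members at their bounds. All 18 tested genes of the DNA replication list rose as well, with a median of 4.56. Ccnb1, the B-type cyclin that drives entry into mitosis, had levels of 4.76, 5.07 and 5.32 in spheres, against -4.85, -4.21 and -2.27 in wild-type SMG. It rose by 8.91 (SE 0.30, limma adjusted p = 1.51e-14), the largest rise of the list. Ube2c, which tags mitotic proteins for destruction, was at 5.40, 5.58 and 5.76 in spheres and -2.91, -2.63 and -2.34 in wild-type SMG. Mki67, the proliferation antigen, was at 5.83, 5.94 and 5.99 in spheres, against -1.67, -1.06 and -0.18 in wild-type SMG. No ganglion reached the lowest sphere for any of these genes, as for 31.8% of all tested genes. Kif18b and Cdc25c, a mitotic kinesin and a phosphatase that activates Cdk1, were not well above background in any ganglion and were at least 139-fold and at least 99.1-fold higher in spheres. Within the mitosis list only Cdk1, the kinase that partners Ccnb1, had overlapping groups. Its levels were 3.01, 3.38 and 3.67 in spheres and -7.53, -4.69 and 5.89 in wild-type SMG, where wild-type SMG 1 lay far above the other 7. It rose by 7.05 (SE 1.33), and by 8.42 without that ganglion. Other probes of Cdk1 rose by 5.48 (SE 0.15) and 6.52 (SE 0.33). Those SEs are too small for a ganglion so far from the rest, so the high level was not shared by these probes.

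The rise covered every stage of replication that the list samples. Mcm2 to Mcm7, the subunits of the replicative helicase, rose by 3.64 (Mcm4) to 6.07 (Mcm5). Cdc6, which loads that helicase, rose by 6.23 (SE 0.16) and Orc1 of the origin complex was at least 13.1-fold higher. Rrm2, the regulated subunit of ribonucleotide reductase, had levels of 6.00, 6.16 and 6.28 in spheres, against -1.94, -1.29 and -1.17 in wild-type SMG. It rose by 7.61 (SE 0.12) and had the largest rise of its list.

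Regulators of G1 did not move as one. Of 15 tested members 11 rose (73.3%) and 4 fell (26.7%), against 43% and 40.8% of all tested genes, with a median of 1.87. The D-type cyclins, which activate Cdk4 and Cdk6, went opposite ways. Ccnd1 levels were 5.69, 5.93 and 6.10 in spheres and 2.89, 3.32 and 4.29 in wild-type SMG, a rise of 2.47 (SE 0.16). Ccnd2 levels were -6.98, -3.45 and -0.95 in spheres, against -0.74, -0.35 and 0.36 in wild-type SMG, and fell by 3.50 (SE 0.75), and spheres 5 to 8 averaged -5.80 against -1.77 in spheres 1 to 4. Ccnd3 fell by 1.07 (SE 0.09). Their kinase partner Cdk4 rose by 3.38 (SE 0.06), whereas the Cdk6 probe was not well above background on any sphere array and was so on 4 of 8 wild-type arrays. Cdk6 is counted among the falls, but its difference was -0.135 with both groups at the floor. Its call was lost with another background correction (normexp, limma adjusted p = 0.319). Ccne1, E2f1 and E2f2, which drive the passage into S phase, rose by 4.01, 4.28 and 3.36. Inhibitors of cyclin-dependent kinases were higher beside them. Cdkn2a, the locus of p16 and Arf, was at 1.34, 2.16 and 2.29 in spheres and -6.38, -6.03 and -5.06 in wild-type SMG, where 2 of 8 arrays were well above background. It rose by 7.82 (SE 0.20, limma adjusted p = 3.76e-16), by 7.60 at the floor, and by 4.04 on its second probe. Cdkn1a (p21), Cdkn2c (p18) and Cdkn1b (p27) rose by 1.87, 1.25 and 0.88, and Cdkn1c (p57) by 0.57. A second Cdkn1a probe, for another transcript, rose by 7.52. Among 14 tested p53 target genes 8 rose (57.1%) and 3 fell (21.4%), against 43% and 40.8% of all tested genes, with a median of 0.49. The apoptosis genes Bax and Bbc3 rose by 2.31 and 2.06, while Perp, a cell-adhesion and death gene, and Fas, a death receptor, fell by 5.74 and 3.92.

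Motifs were counted in promoters of the mitosis genes because those genes rose together, and in promoters of other lists beside them. The cell-cycle genes homology region (CHR) is a motif known from promoters of genes expressed in G2 and mitosis. TTTGAA or TTCGAA, searched on both strands (so also as TTCAAA), stood in 12 of the 15 tested mitosis genes with a promoter in the RefSeq table (80%), in windows of 250 bases before to 50 after the start. It stood in 3 of 16 DNA replication promoters (18.8%) and in 14.2% of the promoters of tested genes. The E-box CACGTG, which does not overlap that motif, stood in 0 of the 15 mitosis promoters, 3 of 13 ribosome biogenesis promoters (23.1%), 4 of 13 nucleotide and polyamine promoters (30.8%) and 9.22% of the promoters of tested genes. It stood in 1 of 14 ribosomal protein promoters (7.14%), 1 of 11 serine and folate promoters (9.09%) and 1 of 16 DNA replication promoters (6.25%). These are matches of letters, not measured binding. Promoters printed below were picked because they hold the motif in the bases shown, so they do not show how common it is. Of them 3 are from the mitosis list, 1 is from ribosome biogenesis and 1 from the nucleotide and polyamine list. The 120 bases before the start are printed 5′ to 3′ on the gene's strand, from RefSeq on GRCm38.p6, with CHR motifs in capitals for the first 3 and E-boxes in capitals for the last 2.
Cdk1, chr10:69352913-69353032, minus strand: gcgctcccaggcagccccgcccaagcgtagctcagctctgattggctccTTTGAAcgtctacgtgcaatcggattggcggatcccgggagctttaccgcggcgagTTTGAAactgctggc
Top2a, chr11:99024190-99024309, minus strand: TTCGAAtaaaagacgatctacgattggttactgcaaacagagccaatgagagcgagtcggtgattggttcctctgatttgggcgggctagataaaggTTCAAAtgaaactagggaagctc
Ube2c, chr2:164769809-164769928, plus strand: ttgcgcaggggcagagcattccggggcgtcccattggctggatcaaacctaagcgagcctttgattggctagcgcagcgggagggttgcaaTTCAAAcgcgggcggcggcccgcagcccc
Nop2, chr6:125131763-125131882, plus strand: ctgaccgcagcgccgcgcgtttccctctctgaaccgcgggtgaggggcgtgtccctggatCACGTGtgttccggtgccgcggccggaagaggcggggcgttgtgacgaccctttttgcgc
Impdh2, chr9:108560316-108560435, plus strand: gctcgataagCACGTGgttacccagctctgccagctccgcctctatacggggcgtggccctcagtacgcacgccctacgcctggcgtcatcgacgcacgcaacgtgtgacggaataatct
The nearest motif begins 15 bases before the start in Cdk1, 23 in Top2a, which untangles DNA, and 29 in Ube2c. It begins 60 bases before the start in Nop2, a nucleolar methyltransferase, and 110 in Impdh2, the rate-limiting enzyme of guanine nucleotide synthesis. These genes rose by 7.05, 8.62, 8.18, 1.84 and 2.38.

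Growth genes rose with less spread than cell-cycle genes. All 17 tested genes of ribosome biogenesis were higher (median 2.26), and all 16 tested ribosomal proteins rose, with a median of 1.48. Quantile normalization lowered the ribosomal protein median to 0.62 with the direction kept. Npm1, a nucleolar chaperone of ribosome assembly, was at 7.95, 8.11 and 8.24 in spheres, against 5.31, 5.54 and 5.99 in wild-type SMG. It rose by 2.49 (SE 0.10, limma adjusted p = 9.41e-14), and its other 4 probes rose by 2.43 to 4.28. Fbl, the methyltransferase of ribosomal RNA, rose by 3.00 (SE 0.11), the most of the list. Of 13 nucleotide and polyamine genes 11 rose and the other 2 did not pass the test, with a median of 1.52. Odc1, the rate-limiting enzyme of polyamine synthesis and a known MYC target, was at 4.99, 5.16 and 5.42 in spheres, against 2.15, 2.47 and 2.83 in wild-type SMG.

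Serine and folate metabolism rose except at its first step. Of 12 tested members 11 rose and 1 fell. Phgdh, which opens serine synthesis, was at 0.96, 1.24 and 1.61 in spheres, against 2.81, 2.91 and 3.37 in wild-type SMG. It fell by 1.70 (SE 0.11, limma adjusted p = 1.83e-10), whereas Psat1, the next enzyme, was at 4.52, 4.98 and 5.21 in spheres and 1.84, 2.03 and 2.25 in wild-type SMG and rose by 2.86 (SE 0.10). The mitochondrial folate enzymes Mthfd2 and Aldh1l2 rose by 2.35 and 3.24. Among 13 tested targets of the stress factor Atf4, 6 rose (46.2%) and 4 fell (30.8%), against 43% and 40.8% of all tested genes. After quantile normalization 1 rose. The glutamine carrier Slc1a5 fell by 2.88 (SE 0.12).

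Energy metabolism showed no shared rise. Of 18 tested hypoxia and glycolysis genes 11 fell (61.1%) and 4 rose (22.2%), with a median of -0.45. The hexokinases went opposite ways. Hk1 was at 3.91, 4.55 and 4.87 in spheres, against 6.08, 6.88 and 7.40 in wild-type SMG, and fell by 2.35 (SE 0.19), while Hk2, the inducible form, was at -1.27, -0.37 and 0.30 in spheres and -4.35, -3.24 and -1.6 in wild-type SMG and rose by 2.83 (SE 0.31). Egln3, an oxygen-sensing prolyl hydroxylase, was at 1.79, 2.34 and 2.75 in spheres, against -3.72, -3.34 and -3.21 in wild-type SMG. Its rise of 5.74 (SE 0.12) was the largest of the list, whereas the hypoxia genes Ndrg1, Bnip3 and Ankrd37 fell by 2.96, 1.70 and 1.33. For 17 oxidative phosphorylation genes the direction depended on the scaling: 11 rose here (median 0.29), whereas after quantile normalization 13 fell by limma's adjusted p, and 0 rose even at an unadjusted p under 0.05 (median -0.44). Of 16 cholesterol synthesis genes 7 rose (43.8%) and 6 fell (37.5%), near the 43% and 40.8% of all tested genes. Their median was 0.07, or -0.56 after quantile normalization.

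Members of the MYC family differed in direction. The array's Mycn probe is a mouse sequence and may miss the human transgene. It was at 3.32, 3.62 and 3.80 in spheres, against 0.81, 1.24 and 1.97 in wild-type SMG. It rose by 2.31 (SE 0.14, limma adjusted p = 3.23e-11). Myc was at -5.89, -4.94 and -3.54 in spheres, against -1.96, -1.6 and -1.5 in wild-type SMG, and was well above background in 5 of 8 spheres and all 8 ganglia. It fell by 3.18 (SE 0.28). Mycl was at -1.79, -1.68 and -1.34 in spheres and -5.44, -4.73 and -2.96 in wild-type SMG, a rise of 2.95 (SE 0.25). The groups did not overlap for any of the 3, as for 63.5% of all tested genes. Of 10 tested members of the network 7 rose (70%) and 2 fell (20%), against 43% and 40.8% of all tested genes. Mxd3, a Max partner known from dividing cells, rose by 6.65 (SE 0.21), or 6.13 at the floor, with 1 of 8 ganglia well above background, and Mxd4, a repressive partner known from resting cells, fell by 1.69 (SE 0.11). Max itself rose by 0.77 (SE 0.12).

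**Figure D2:**
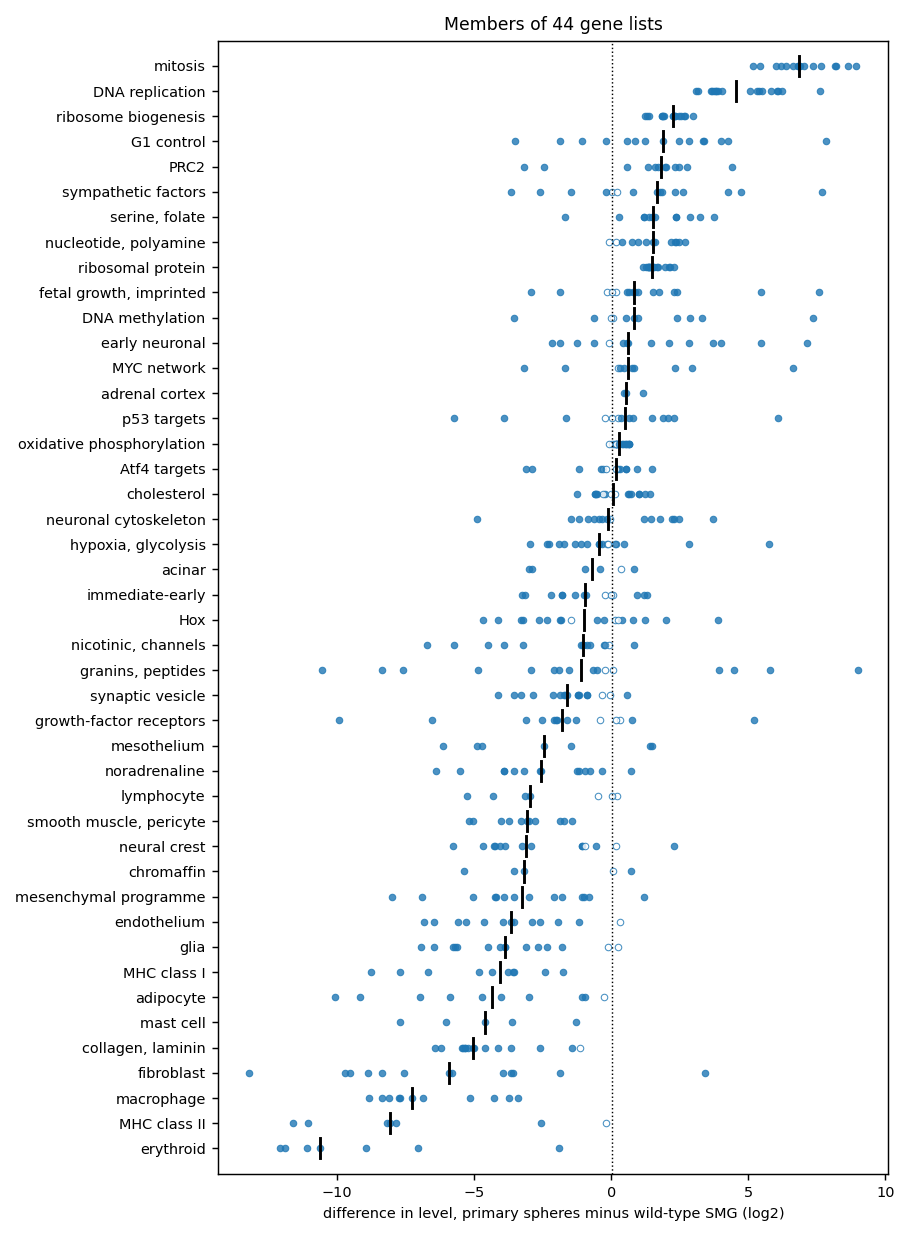
Difference in level (primary spheres minus wild-type SMG, log2) of every tested member of 44 gene lists, one row per list; filled points passed the limma test, open points did not, vertical bars are list medians and the dotted line marks the median of all tested genes (0.05). Rows for cell division and growth lie to the right. Rows for non-neural cells lie to the left, except adrenal cortex (median 0.53), as do neural rows such as noradrenaline, synaptic vesicle and neural crest. Rows for sympathetic transcription factors and neuropeptides extend to both sides.

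The machinery of noradrenaline was lower in spheres, by very unequal amounts. Of 14 tested genes 13 fell and 1 rose, with a median of -2.57. Th, tyrosine hydroxylase, which limits catecholamine synthesis and is the source of the transgene's promoter, was at 7.66, 7.79 and 8.02 in spheres, against 8.31, 8.61 and 8.80 in wild-type SMG. It fell by 0.76 (SE 0.09, limma adjusted p = 3.03e-07). Dbh, which converts dopamine to noradrenaline, was at 5.76, 6.05 and 6.34 in spheres, against 8.25, 8.62 and 9.12 in wild-type SMG, and fell by 2.59 (SE 0.11). Slc6a2, the transporter that takes noradrenaline back up, was at -0.13, 0.58 and 1.40 in spheres, against 6.56, 6.97 and 7.35 in wild-type SMG, and fell by 6.38 (SE 0.19, limma adjusted p = 3.24e-15). All 8 spheres lay below all 8 ganglia for each, as for 31.7% of all tested genes. Synthesis enzymes thus fell by 0.76 (Th), 1.16 (Ddc) and 2.59 (Dbh), the vesicle transporters by 3.55 (Slc18a1) and 3.90 (Slc18a2), and the breakdown enzymes by 3.89 (Maoa) and 5.50 (Maob). Pnmt, the adrenaline enzyme, rose by 0.71 with overlapping groups, a call lost with slide as a random block (limma adjusted p = 0.152). Th, Dbh and Gata3 were well above background on all 16 arrays, so the defining markers of noradrenergic cells were present in both groups.

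Neuropeptides moved in both directions. Of 16 granins, processing enzymes and peptides tested, 10 fell and 4 rose, and all 4 that rose were peptide precursors. Cartpt, the precursor of CART peptide, was at 8.08, 8.36 and 8.49 in spheres, against -1.54, -0.63 and 0.27 in wild-type SMG. It rose by 9.00 (SE 0.19, limma adjusted p = 3.19e-17), one of the 12 largest rises that the naming rule gives. Vip, vasoactive intestinal peptide, was at 2.21, 2.70 and 3.34 in spheres, against -5.40, -2.88 and -0.43 in wild-type SMG, and rose by 5.78 (SE 0.58). Adcyap1, the PACAP precursor, rose by 3.95 and Pnoc, the nociceptin precursor, was at least 7.86-fold higher. The peptides of the mature ganglion went the other way. Npy, neuropeptide Y, a co-transmitter of sympathetic neurons, was at -1.39, -0.69 and 0.34 in spheres, against 7.25, 7.68 and 7.95 in wild-type SMG. It fell by 8.35 (SE 0.19, limma adjusted p = 1.11e-16). Gal, galanin, fell by 4.84 (SE 0.09), and Sst, somatostatin, was at least 62.2-fold lower. Pcsk1, the convertase that cuts prohormones, was not well above background on any sphere array. It was at -7.70, -7.59 and -5.91 in spheres, against 3.02, 3.21 and 3.70 in wild-type SMG, at least 418-fold lower. Its relative Pcsk2 fell by 2.93 (SE 0.14). The granins Chga and Scg2 fell by 1.54 and 2.09, while Chgb was at 5.96, 6.31 and 6.69 in spheres and 5.72, 6.29 and 6.81 in wild-type SMG, a difference of 0.08 (SE 0.15, limma adjusted p = 0.63).

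**Figure D3:**
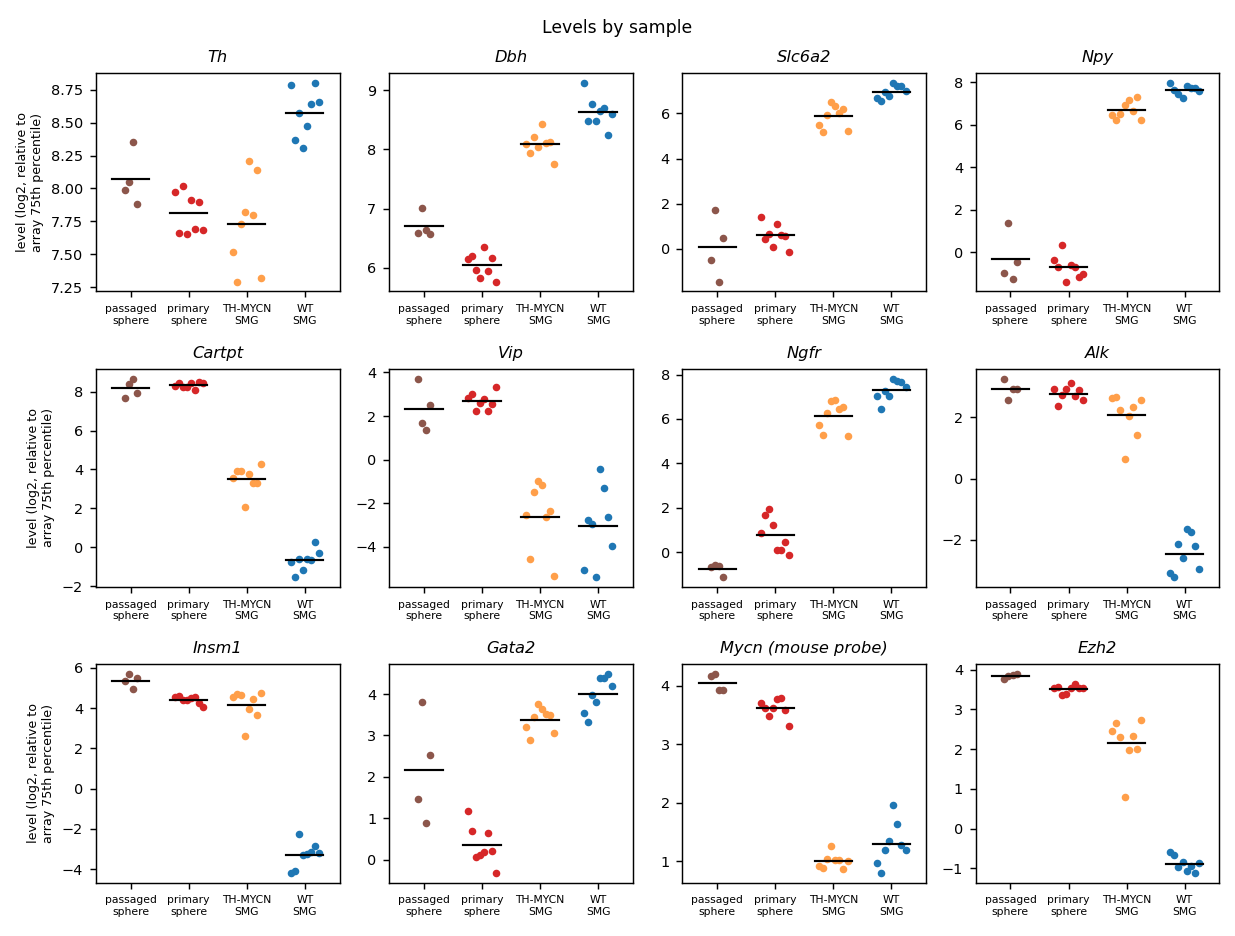
Level of 12 genes (log2 relative to the array's 75th percentile) in passaged spheres (4 cultures), primary spheres (8), TH-MYCN SMG (8) and wild-type SMG (8), left to right; each point is a sample and each bar a group mean. Primary spheres and wild-type SMG do not overlap for any of these 12 chosen genes, as for 63.5% of all tested genes. TH-MYCN SMG lie close to the spheres for Th, Alk and Insm1 and close to wild-type SMG for Npy, Vip, Ngfr, Gata2 and mouse Mycn.

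The structural genes of neurons were divided, while those of transmission fell. Of 16 tested cytoskeletal and RNA-binding genes 7 rose (43.8%) and 8 fell (50%), near the 43% and 40.8% of all tested genes. Their median of -0.10 turned to 0.05 with median centring. Among intermediate filaments, Prph, peripherin of peripheral neurons, was at 1.89, 2.17 and 3.53 in spheres, against 6.75, 7.28 and 7.55 in wild-type SMG. It fell by 4.90 (SE 0.20), whereas the light and medium neurofilaments Nefl and Nefm rose by 1.77 and 2.48 and the heavy chain Nefh fell by 1.18. Dcx, doublecortin of migrating young neurons, was at 3.52, 3.79 and 4.17 in spheres, against -0.31, 0.21 and 0.43 in wild-type SMG, a rise of 3.70 (SE 0.11). Elavl4, a neuronal RNA-binding protein, and Rbfox3 (NeuN) rose by 2.23 and 2.29. Of 17 synaptic vesicle genes 14 fell and 1 rose, with a median of -1.6. Syt1, the calcium sensor of release, was at 2.71, 3.10 and 3.24 in spheres, against 6.88, 7.16 and 7.41 in wild-type SMG, and fell by 4.11 (SE 0.09), the most of the list. The core fusion protein Snap25 fell by 0.89 (SE 0.12).

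Genes of the ganglionic input receptor had the 2 largest fitted falls of their list. Sympathetic neurons receive their signal through nicotinic receptors built mainly from the alpha3 and beta4 subunits. Chrna3 was at -3.01, -2.65 and -2.37 in spheres, against 2.89, 3.10 and 3.24 in wild-type SMG, and fell by 5.75 (SE 0.09). Chrnb4 was at -2.72, -2.06 and -1.44 in spheres, against 4.21, 4.57 and 5.00 in wild-type SMG, and fell by 6.73 (SE 0.17, limma adjusted p = 3.37e-16). Chrna5, whose gene lies in a cluster with these 2, was not well above background on any sphere array and was at least 15.8-fold lower. Chrna7, another alpha subunit, rose by 0.82 (SE 0.12). In the whole list of 15 tested receptors and channels 12 fell and 1 rose, with a median of -1.03. The M-current potassium channels Kcnq3 and Kcnq5 fell by 3.92 and 3.22.

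Most growth-factor receptors were lower in spheres, and Alk was the receptor that rose most. Ngfr, the p75 receptor for neurotrophins, was at -0.13, 0.66 and 1.97 in spheres, against 6.46, 7.35 and 7.81 in wild-type SMG, and fell by 6.52 (SE 0.30). Ntrk2 and Ntrk3, receptors for neurotrophins, fell by 2.10 and 1.29. Other probes of Ntrk2 fell by 2.87 and 7.43, and those of Ntrk3 by 0.37 to 1.21. Alk, a receptor tyrosine kinase that is mutated in part of human neuroblastomas, was at 2.35, 2.81 and 3.10 in spheres, against -3.21, -2.39 and -1.65 in wild-type SMG. It rose by 5.21 (SE 0.22, limma adjusted p = 2.70e-13), while its relative Ltk fell by 2.0 (SE 0.28). Ret, the receptor for glial-derived neurotrophic factors, was at 3.54, 4.06 and 4.41 in spheres and 3.05, 3.75 and 4.45 in wild-type SMG, a difference of 0.31 (SE 0.19, limma adjusted p = 0.144), and its co-receptor Gfra2 fell by 2.52 (SE 0.16). In all, 9 of 14 tested receptors fell (64.3%) and 2 rose (14.3%), against 40.8% and 43% of all tested genes.

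Transcription factors of the sympathetic list rose more often than they fell, and split within families. Of 15 tested members 9 rose (60%) and 4 fell (26.7%), against 43% and 40.8% of all tested genes, with a median of 1.68. The list also holds Mycn, Sox4 and Sox11, which are among the rises and are not confined to specifying sympathetic neurons. Phox2a, a homeodomain factor of noradrenergic neurons, fell by 1.48 (SE 0.23). Gata3 rose by 0.80 (SE 0.19), and Gata2 was at -0.32, 0.19 and 1.17 in spheres, against 3.33, 4.08 and 4.48 in wild-type SMG, and fell by 3.67 (SE 0.21). Hand2 was at 4.50, 4.73 and 4.87 in spheres and 4.08, 4.65 and 5.12 in wild-type SMG, a difference of 0.04 (SE 0.13, limma adjusted p = 0.749), and Hand1 fell by 2.60 (SE 0.15). Insm1, a zinc-finger factor of neuroendocrine progenitors, was at 4.05, 4.44 and 4.59 in spheres, against -4.18, -3.24 and -2.24 in wild-type SMG, a rise of 7.70 (SE 0.22). Sox11 and Sox4, which act in immature neurons, rose by 4.25 and 2.61.

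**Figure D4:**
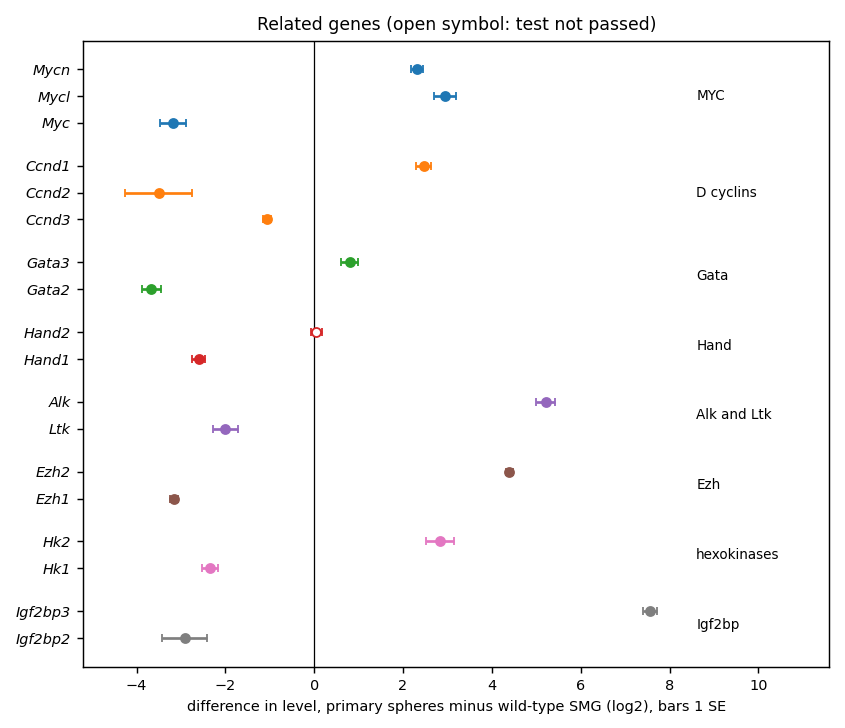
Difference in level (primary spheres minus wild-type SMG, log2, with bars of 1 SE) for members of 8 gene families, grouped by family. Each family has members on both sides of 0, although Hand2 (0.04) did not pass the test, for example Ezh2 at 4.39 and Ezh1 at -3.17, and Alk at 5.21 and Ltk at -2.0.

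Earlier, crest-like and glial identity did not rise with these factors. Of 14 tested neural crest and stem cell genes 11 fell and 1 rose, with a median of -3.09, or -2.54 with 2 members at their bounds. Sox10, a crest and glial factor, was at -2.35, -1.38 and 0.69 in spheres, against 2.33, 2.92 and 3.65 in wild-type SMG, and fell by 4.07 (SE 0.41). It averaged -0.12 in spheres 1 to 4 and -2.14 in spheres 5 to 8. Prom1, the CD133 antigen, fell by 4.68 (SE 0.14). The 1 gene that rose was Lin28b, which blocks the maturation of let-7 microRNAs. Lin28b was at 2.33, 2.52 and 2.74 in spheres, against -0.18, 0.23 and 0.55 in wild-type SMG, a rise of 2.29 (SE 0.09, limma adjusted p = 2.37e-13). Of 15 tested early neuronal genes 10 rose (66.7%) and 4 fell (26.7%), against 43% and 40.8% of all tested genes. Igfbpl1, known from immature neurons, rose by 7.14 (SE 0.47), or 5.62 at the floor, with 1 of 8 ganglia well above background, and Neurod1, a proneural factor, was at least 4.66-fold higher. The adhesion molecules Nrcam and L1cam fell by 1.87 and 2.15.

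Fetal growth and imprinted genes were mostly higher. Of 16 tested members 11 rose (68.8%) and 2 fell (12.5%), against 43% and 40.8% of all tested genes, with a median of 0.84. Dlk1, an imprinted Notch-like protein of immature chromaffin and neuroblastoma cells, was at 6.43, 7.02 and 7.44 in spheres, against 1.05, 1.35 and 2.15 in wild-type SMG, a rise of 5.48 (SE 0.18). Igf2bp3, an oncofetal RNA-binding protein, was at -0.07, 0.14 and 0.45 in spheres, against -7.76, -7.61 and -6.59 in wild-type SMG. It was at least 59.9-fold higher, while its paralog Igf2bp2 fell by 2.92 (SE 0.50). Igf2bp2 averaged -3.33 in spheres 1 to 4 and -6.06 in spheres 5 to 8. Igf2, a fetal growth factor, rose by 2.40 (SE 0.35) but stayed dim, at -4.23, -3.25 and -1.69 in spheres and -6.84, -5.36 and -4.79 in wild-type SMG.

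Paralogs parted among chromatin regulators too. Of 12 tested genes of Polycomb repressive complex 2 (PRC2), which methylates histone H3, 10 rose and 2 fell, with a median of 1.83. The 2 that fell were Ezh1 and Phf1. Ezh2, the catalytic subunit of dividing cells, was at 3.36, 3.54 and 3.65 in spheres, against -1.11, -0.90 and -0.58 in wild-type SMG, a rise of 4.39 (SE 0.08, limma adjusted p = 5.11e-18). Ezh1, its alternative in resting cells, was at 1.15, 1.29 and 1.6 in spheres, against 4.17, 4.52 and 4.69 in wild-type SMG, and fell by 3.17 (SE 0.09). The accessory subunits Phf19 and Mtf2 rose by 2.47 and 2.31, and their relative Phf1 fell by 2.43. Of 11 tested DNA methylation genes 7 rose (63.6%) and 2 fell (18.2%), against 43% and 40.8% of all tested genes. Uhrf1, which brings the maintenance enzyme to replicated DNA, was at 4.26, 4.47 and 4.55 in spheres, against -3.50, -3.00 and -2.18 in wild-type SMG, a rise of 7.36 (SE 0.16, and 5.47 on its second probe), and Dnmt1 itself rose by 3.31 (SE 0.10).

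Hox genes, which record position along the body axis, split by cluster. Of 18 tested 5 rose (27.8%) and 10 fell (55.6%), with a median of -1.0, or -0.46 with 3 members at their bounds. The 5 that rose were Hoxc4, Hoxc6, Hoxc8, Hoxd8 and Hoxd9. Hoxd9 was at -1.76, -0.41 and 0.52 in spheres, against -4.97, -4.20 and -4.02 in wild-type SMG, a rise of 3.89 (SE 0.29). In the Hoxb cluster 6 of 8 tested genes fell and the other 2 did not pass the test. Hoxb7 was at -7.48, -5.55 and -2.60 in spheres, against -0.92, -0.62 and -0.36 in wild-type SMG, and fell by 4.66 (SE 0.74). The fall was larger in spheres 5 to 8, which averaged -7.37, than in spheres 1 to 4, which averaged -3.22, with no test of that difference.

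Markers of cells other than neurons were lower in spheres than in the ganglion for nearly every list, and these values stand beside all results above, in which their part was not tested. In such bulk samples fewer cells of a type and less RNA per cell cannot be told apart. A gene was tested if its probe was well above background on at least 4 of the 16 arrays. A gene dim in all spheres thus entered through the ganglia alone, and that filter makes a fall likely. The counts of falls below stand beside 40.8% of all tested genes. Macrophage genes fell in 11 of 11 tested, with a median of -7.26, or -5.62 with 6 members at their bounds. The complement subunit C1qc was at least 81.1-fold lower, and Adgre1 (F4/80) at least 111-fold lower. The mean level of the macrophage list was -6.16 to -5.50 in the 8 spheres, against 0.45 to 1.16 in the 8 ganglia. Fibroblast genes fell in 12 of 13 tested, with a median of -5.90. Dcn, decorin of connective tissue, was at -7.45, -6.37 and -4.24 in spheres, against 6.79, 7.03 and 7.54 in wild-type SMG. It fell by 13.22, the largest fall among the named genes (SE 0.41, limma adjusted p = 5.72e-15), and fell by 12.25 at the floor, and was well above background in 2 of 8 spheres. The exception of the list was Fbln1, fibulin, which rose by 3.43 (SE 0.18). Collagen and laminin genes fell in 14 of 15, endothelial genes in 12 of 13 and smooth muscle and pericyte genes in 11 of 11 tested, with medians of -5.05, -3.66 and -3.07. With members at their bounds, the endothelial median was -3.55 and the smooth muscle and pericyte median -2.78. The endothelial cadherin Cdh5 was at least 25.4-fold lower. Kdr, an endothelial receptor, was the endothelial gene without a call, and 2 of its probes gave opposite signs, at 0.32 and -6.62.

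Glial genes fell in 13 of 15 tested, with a median of -3.89. S100b, a calcium-binding protein of glia, was at -6.18, -4.27 and -1.09 in spheres, against 2.68, 2.85 and 3.19 in wild-type SMG. It fell by 6.94 (SE 0.70), and Fabp7, a satellite glial marker, fell by 5.70 (SE 0.61). Spheres 1 to 4 and 5 to 8 averaged -2.12 and -5.97 for S100b, and 1.83 and -1.51 for Fabp7. Mbp, a myelin protein, had no call, and its 3 probes gave 0.27, 0.69 and -4.66. Mast cell genes fell in 5 of 5, adipocyte genes in 9 of 10 and lymphocyte genes in 4 of 7 tested. Haemoglobin and other erythroid genes fell in 7 of 7 and mesothelial genes in 5 of 7, with 2 mesothelial genes higher. No sphere array was well above background for 3 mast cell, 5 adipocyte, 4 lymphocyte, 3 erythroid and 5 mesothelial genes of those tested. These genes passed the filter through the ganglia alone, so their counts of falls are no independent support. Of 6 acinar genes 4 fell (66.7%) and 1 rose (16.7%), against 40.8% and 43% of all tested genes. Fabp4 of adipocytes was at least 285-fold lower. The 3 tested adrenal cortex genes rose by 0.46 (Nr5a1), 0.53 (Cyp21a1) and 1.16 (Star), all at dim levels, and with slide as a random block 1 of the 3 was called. Of 5 chromaffin cell genes 3 fell (60%) and 1 rose (20%), too few to set apart from the shares of all tested genes. Genes of a mesenchymal programme of neuroblastoma fell in 13 of 14, with a median of -3.27, or -2.47 with 3 members at their bounds. Yap1, a coactivator of growth signalling, was at -6.93, -3.22 and -0.59 in spheres, against 2.67, 3.27 and 3.67 in wild-type SMG, and fell by 6.90 (SE 0.86). It averaged -1.32 in spheres 1 to 4 and -5.98 in spheres 5 to 8. Meox2 was at least 60.1-fold lower. Immediate-early genes fell in 8 of 14 (57.1%) and rose in 3 (21.4%), against 40.8% and 43% of all tested genes. Nr4a1, an orphan nuclear receptor induced by activity, fell by 3.26 (SE 0.13), and Jun rose by 1.19 (SE 0.11).

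Genes of antigen presentation were lower in spheres for both classes of the major histocompatibility complex. Class I genes, which nearly all cells can express, fell in 10 of 10 tested, with a median of -4.06, or -3.67 with 3 members at their bounds. H2-K1, a classical class I heavy chain, was at -0.12, 0.24 and 0.69 in spheres, against 4.35, 4.60 and 5.06 in wild-type SMG, and fell by 4.36 (SE 0.11, limma adjusted p = 3.89e-16). B2m, the light chain, was at 1.12, 1.69 and 2.32 in spheres, against 4.63, 5.15 and 6.28 in wild-type SMG, and fell by 3.58 (SE 0.24). Psmb8, a subunit of the immunoproteasome, was at least 153-fold lower, and the peptide transporter subunit Tap1 at least 7.85-fold lower. Class II genes fell in 6 of 7 tested, and H2-Ab1 was at least 793-fold lower. The macrophage markers given above moved with these genes, and their part in the class I and class II differences was not tested.

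**Figure D5:**
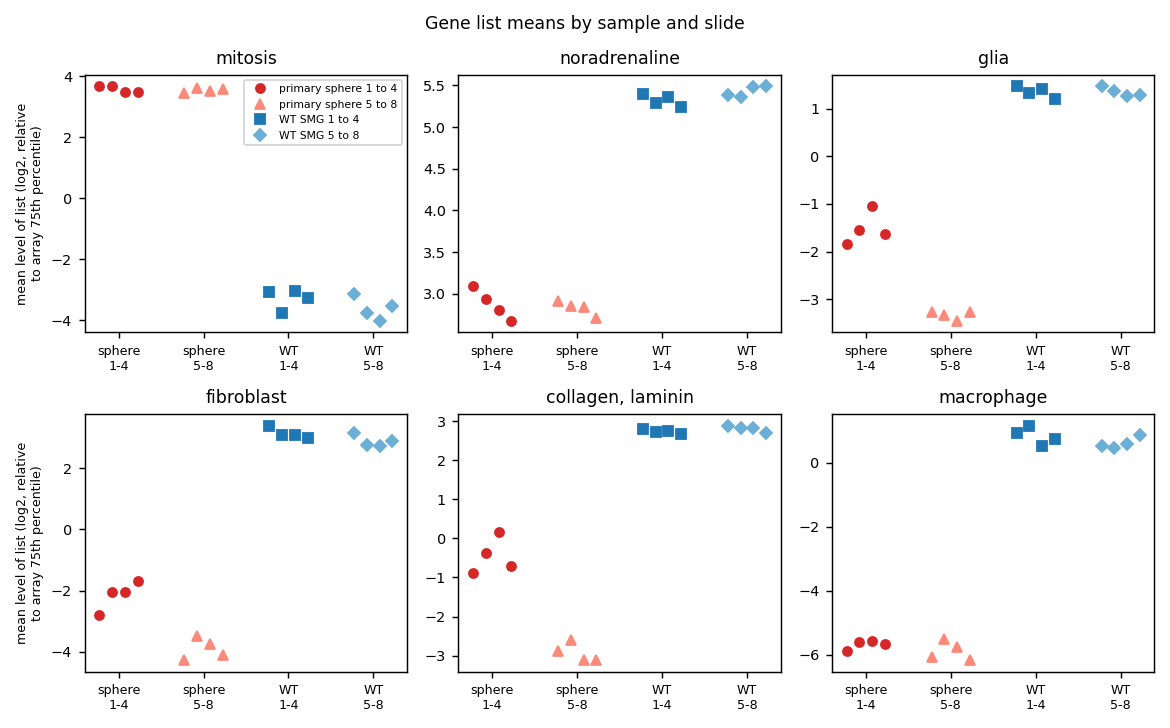
Mean level of the tested members of 6 gene lists (log2 relative to the array's 75th percentile) in each of the 8 primary spheres and 8 wild-type SMG; symbols separate the 4 slides. Glial, fibroblast and matrix means of spheres 1 to 4 lie above those of spheres 5 to 8, while mitosis and noradrenaline means of the 2 sphere slides lie close together, and all spheres lie apart from all ganglia.

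The spheres were not uniform in the levels of matrix, fibroblast, glial, neural crest and mesenchymal genes. The mean level of the matrix list was -0.88 to 0.16 in spheres 1 to 4 and -3.11 to -2.59 in spheres 5 to 8, against 2.68 to 2.89 in wild-type SMG. The fibroblast list gave -2.81 to -1.69 in spheres 1 to 4 and -4.27 to -3.49 in spheres 5 to 8, against 2.73 to 3.40 in wild-type SMG. In the same 2 sets the glial list gave -1.84 to -1.05 and -3.45 to -3.26. The neural crest list gave -3.195 to -2.606 and -4.37 to -4.06, and the mesenchymal list -2.97 to -2.52 and -3.89 to -3.52. The split followed the slide, and among the primary spheres culture and slide cannot be told apart. The passaged cultures had arrays on both of these slides, but those arrays were averaged and a slide effect was not tested. With spheres 1 to 4 alone the fibroblast median was -4.26, and with spheres 5 to 8 alone it was -7.62. The mitosis median was 6.85 with either set.

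The genes that varied most among the 8 spheres, by standard deviation, fell into 3 kinds. Xist, the RNA that coats the inactive X chromosome, was at -7.64, -2.94 and 1.76 in spheres, against -8.04, -7.66 and -0.37 in wild-type SMG, and was well above background in 4 of 8 spheres and 2 of 8 ganglia. The Y-linked Ddx3y was well above background in the other 4 spheres and in the other 6 ganglia, and the Y-linked Eif2s3y was at -7.66, -2.44 and 2.69 in spheres and -4.43, 1.79 and 2.27 in wild-type SMG. Of the 4 spheres with Xist, 1 lay among spheres 1 to 4 and 3 among spheres 5 to 8, and its part in the other differences was not tested. Spp1 (osteopontin), Adamts4 (a matrix protease), Crym (a thyroid hormone-binding crystallin) and Afap1l2 (an actin-binding adaptor) separated the slides. Spp1 averaged -0.18 in spheres 1 to 4 and -6.24 in spheres 5 to 8, against -2.27 ± 0.49 in wild-type SMG (SD, n = 8). Its difference was 2.09 with spheres 1 to 4 alone and -3.97 with spheres 5 to 8 alone. Crym averaged -1.71 and -7.13 in the same sets, and fell by 6.22 overall (SE 0.98). The remaining 3, Ggps1, Nlrp5 and Syce1, varied within slides. Ggps1, an isoprenoid enzyme, was between 2.06 and 2.34 in 7 spheres and at -5.81 in sphere 6. Its difference from wild-type SMG was -0.44 (limma adjusted p = 0.663), and 0.56 without sphere 6. A second probe gave 0.54.

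The largest rises and falls that the naming rule gives held members of the lists above and genes outside them. Actc1, cardiac alpha-actin, was at 2.60, 2.89 and 3.00 in spheres, against -7.93, -7.70 and -7.13 in wild-type SMG, and was at least 391-fold higher, the largest fitted rise among the named genes. Pantr1, a long noncoding RNA, was at least 314-fold higher. Slc38a4, an imprinted amino acid transporter, was at 4.42, 4.53 and 4.75 in spheres, against -4.62, -4.15 and -4.04 in wild-type SMG, a rise of 8.82 (SE 0.10). The other 9 of the 12 largest rises were Cartpt and 8 genes tied to cell division: Pbk, Ccnb1, Kif18b, H1f5, Top2a, Dtl, Sapcd2 and Cdc25c. Among the 12 largest falls, after Dcn, were the haemoglobin genes Hbb-b2, Hbb-bt, Hba-a1 and Hba-a2, whose near-identical copies share probe sequence and are uncertain one by one, and the class II genes H2-Ab1 and H2-Eb1. Mal, a myelin and lymphocyte proteolipid, was at least 969.9-fold lower. Cckar, the cholecystokinin A receptor, was at -7.56, -7.40 and -4.79 in spheres, against 3.59, 3.81 and 3.98 in wild-type SMG. With 1 of 8 spheres well above background, it fell by 10.69 (SE 0.32), and fell by 9.20 at the floor. The others were Pcsk1, given above, Myl1, a muscle myosin light chain, and Dmkn, dermokine. Myl1, well above background in 2 of 8 spheres, fell by 10.93, fell by 10.44 at the floor and fell by 7.66 on its second probe. Dmkn, well above background in 1 of 8 spheres, fell by 10.71, and fell by 9.92 at the floor.

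The transgenic ganglion and the passaged spheres place these differences in the series. Means and SD are given in the order passaged spheres (n = 4), primary spheres (n = 8), TH-MYCN SMG (n = 8) and wild-type SMG (n = 8), and the contrasts come from one limma fit of the 4 groups, in which neighbouring contrasts share samples. For Th the means were 8.07 ± 0.20, 7.81 ± 0.15, 7.73 ± 0.34 and 8.58 ± 0.18. TH-MYCN SMG minus wild-type SMG was -0.85 (limma adjusted p = 1.00e-06), and primary spheres minus TH-MYCN SMG was 0.09 (limma adjusted p = 0.501). For Insm1 the means were 5.37 ± 0.32, 4.41 ± 0.18, 4.17 ± 0.75 and -3.29 ± 0.63, with the same 2 contrasts at 7.45 and 0.25 (limma adjusted p = 0.389 for the second). Egln3 and Mycl gave 5.75 and -0.01, and 3.00 and -0.05. For these 4 genes most of the difference from the wild-type ganglion was present in TH-MYCN SMG. The same held for the cell division genes Ccnb1 (7.24 and 1.67), Top2a (7.04 and 1.59) and Mki67 (5.80 and 1.07). It also held for Alk (4.51 and 0.71) and Dlk1 (4.88 and 0.59).

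Other genes differed from the wild-type ganglion chiefly in spheres. Mouse Mycn averaged 4.05 ± 0.15, 3.62 ± 0.16, 1.01 ± 0.12 and 1.30 ± 0.36 in the same order. TH-MYCN SMG minus wild-type SMG was -0.29 (limma adjusted p = 0.0264), so mouse Mycn was lower in the transgenic ganglion, and primary spheres minus TH-MYCN SMG was 2.61. Vip averaged 2.31 ± 1.05, 2.70 ± 0.38, -2.64 ± 1.58 and -3.08 ± 1.72, and its contrasts were 0.44 (limma adjusted p = 0.551) and 5.34. Ngfr averaged -0.74 ± 0.26, 0.78 ± 0.78, 6.14 ± 0.65 and 7.30 ± 0.45, with contrasts of -1.16 and -5.36. Cartpt lay between, at 8.17 ± 0.44, 8.34 ± 0.15, 3.52 ± 0.67 and -0.67 ± 0.54, with contrasts of 4.19 and 4.82. Pnoc and Igfbpl1 were highest in TH-MYCN SMG, with contrasts of 10.95 and -6.48 for Pnoc and 9.52 and -2.38 for Igfbpl1. The first contrast of each rests partly on wild-type signal at background. Gata2 was higher again in passaged spheres, where passaged minus primary spheres was 1.82 (limma adjusted p = 9.11e-04). For Npy, Alk and Cartpt that contrast did not pass the test (limma adjusted p between 0.577 and 0.845).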

How the data were processed

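Total RNA of 8 primary sphere cultures and 8 wild-type SMG, described in the series text as biological replicates, was labelled and measured on Agilent mouse arrays with one colour. The labels give 2 possible RNA amounts per array without assigning them to samples. Per the file headers, the deposited files hold Feature Extraction 11.5.1.1 output, with a background-subtracted and detrended processed signal intensity, median spot and local background intensities, and quality flags per spot. The authors' deposited log2 value table was used as an alternative. In 99.9% of its values it equals, within 0.05, the log2 processed intensity less the array's 75th percentile and a constant per probe. The reference of that centring is unknown, and its column medians ran from -0.08 to 0.07 for spheres and from -0.48 to -0.02 for wild-type SMG.

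From the intensity files, log2 processed signal minus each array's 75th percentile was computed. Flagged outlier spots (109 to 198 per sphere array, 153 to 211 per wild-type array) were left out, and no probe spot was saturated. Spots of one probe were averaged, and a probe was kept if well above background on at least 4 of the 16 arrays. Of 55681 probes, 27235 were named through their RefSeq accession (GRCm38.p6 table), covering 20660 symbols, and 28446 stayed unnamed. For a gene with several kept probes, the one of highest mean level was taken. limma 3.58.1 (lmFit and eBayes, R 4.3.3) gave two-sided tests with Benjamini-Hochberg adjustment, called under 0.05, on the 16 samples. The number of arrays limits the precision. The pipeline was tested on simulated data.

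A bound compares the brighter group's mean with the higher, on each array, of the lowest signal among probes well above background and the dim probe's own signal. Genes named are a panel of 12, the 12 largest rises and 12 largest falls among curated symbols called in every fit without 1 sample, members of the lists, and the 10 genes with the largest SD among spheres. The members and lists were chosen with earlier results of these data known. Alternatives covered scaling, background, filters, slides, the replicate number, probe choice and each sample left out. Some genes of the panel and lists are not reported here by name.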

Additional observations from a re-analysis of the deposited data

Results flagged for a closer look

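Of 354 sets of 8 samples examined (a named gene in 1 group), 31 had a single sample far from the other 7, by a gap over 0.526 of the group's range. Chance flags about 1 set in 20, and the sets are not independent. Values are log2 levels relative to the array's 75th percentile. Of the 31, 22 were in spheres and 9 in wild-type SMG.

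The haemoglobin genes stood out in sphere 2, where Hba-a1 was at -2.35 (the other 7 between -6.96 and -5.06), Hba-a2 at 0.02 (between -4.55 and -2.84), Hbb-b2 at -4.84 (between -7.52 and -7.08) and Hbb-bt at -2.62 (between -7.51 and -6.12). All 8 spheres remained below all 8 ganglia for these genes, as for 31.7% of all tested genes. Prph was high in the same sphere, at 3.53, with the others between 1.89 and 2.60. Sphere 3 was high for Cckar (-4.79, others -7.56 to -6.46), Mal (-5.73, others -7.47 to -7.08), Pcsk1 (-5.91, others -7.70 to -7.07) and Ccnd3 (2.20, others 1.84 to 2.01). It was low for Actc1 (2.60, others 2.82 to 3.00) and Cdkn1c (0.87, others 1.35 to 1.63).

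Sphere 8 was high for the cell-cycle genes Cdc25c (1.5, others 0.61 to 0.98), Mcm7 (6.34, others 5.96 to 6.14) and Top2a (3.73, others 3.22 to 3.45) and for Pantr1 (3.55, others 2.29 to 2.87). It was low for Syt1 (2.71, others 2.99 to 3.24). Sphere 4 was high for the class II gene H2-Ab1 (-5.95, others -7.81 to -7.46) and low for Star (-4.10, others -3.67 to -3.31). Sphere 5 was low for Atf4 (6.15, others 6.68 to 6.91) and high for Sox4 (4.17, others 3.73 to 3.93). Ntrk3 was low in sphere 1 (-0.35, others 0.47 to 0.91), and Ggps1 in sphere 6 (-5.81, others 2.06 to 2.34).

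Among wild-type SMG, Cdk1 in ganglion 1 was furthest from the rest, at 5.89 with the others between -7.53 and -3.84. This holds for the probe used, and the differences on other Cdk1 probes had SEs of 0.15 and 0.33, too small for such a gap. Ganglion 3 was high for Igfbpl1 (-3.70, others -8.13 to -6.66) and for Pantr1 (-5.37, others -7.81 to -7.26). Ganglion 2 was low for Bbc3 (0.62, others 1.1 to 1.52) and Fbl (1.28, others 1.73 to 1.90). Ganglion 4 was high for Mycl (-2.96, others -5.44 to -4.36) and low for Slc18a2 (6.19, others 6.39 to 6.54). Impdh2 was high in ganglion 5 (3.42, others 2.99 to 3.19), and Syce1 was low in ganglion 6 (-7.45, others -4.19 to -1.75).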

How the results depend on the processing

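Over 14 alternatives and 16 fits without 1 sample each, the number of genes called (13328) stayed between 11918 (slide as a random block) and 15433 (no filter on dim probes), and between 13173 and 13412 with 1 sample left out. The share of rises among called genes was 51.3%, with 47% after quantile normalization and 56.6% without a filter. The median of all tested genes was 0.05, and -0.08 after quantile normalization, 0.20 after median centring and 0.21 without a filter. Among list counts, rises of Atf4 targets (6) became 1 after quantile normalization, 3 with slide as a random block, and 2 with spheres of slide 4 only or wild-type SMG of slide 2 only. Rises in oxidative phosphorylation (11) became 0 after quantile normalization, where 13 of its genes fell and 0 rose at an unadjusted limma p under 0.05. Rises in adrenal cortex genes (3) became 1 with slide as a random block, with spheres of slide 4 only and with wild-type SMG of slide 1 only. Falls in lymphocyte genes (4) became 2 under the stricter filter, falls in acinar genes (4) became 2 under normexp, and falls in mesothelial genes (5) became 3 under normexp, the stricter filter or wild-type SMG of slide 2 only. The stricter filter tests fewer genes. For the other changes the cause was not tested.

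Reversals were few, 23 of 5305 values over 177 named genes. Adamts4 was -1.86 with spheres of slide 4 only. Chgb was -0.70 after quantile normalization and -0.17 with wild-type SMG of slide 2 only. Hand2 was -0.36 and -0.21 in the same settings, and -0.039 to 0.11 with 1 sample left out. Ggps1 was 0.54 with spheres of slide 3 only, 0.051 with probes averaged, and -0.61 to 0.56 with 1 sample left out. Kdr was -0.11 with wild-type SMG of slide 1 only and -3.15 with probes averaged, and Mbp was -1.23 with probes averaged. Spp1 was 0.24 under normexp and 2.09 with spheres of slide 3 only. Syce1 was 0.15 under normexp, 1.06 with spheres of slide 4 only, 0.24 with wild-type SMG of slide 2 only, and -0.94 to 0.17 with 1 sample left out. Of these 8 genes none was called with all samples. The cause was not tested. Calls of Atf4, Cdk6, Cyp21a1, Hoxc6, Nr5a1 and Pnmt were lost in at least 1 setting. Nlrp5, at a limma adjusted p of 0.04997, lost its call in 20 of 30.

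Replicate numbers did not pair the samples. Deviations of same-numbered samples correlated at -0.05 to 0.12, with 2 of 8 over 0.1. With the replicate number as a block 13316 genes were called, and no call of a named gene changed. Dim signal limits the size of large differences: under normexp the macrophage median was -3.33 in place of -7.26, with the direction kept.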
